A study of Mus musculus with 3 samples.

Results

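Cholesterol synthesis and sterol uptake genes were followed across 3 populations of C57BL/6 mouse bone marrow cells, each profiled as 1 RNA-seq library. The set held 29 genes of the 23393 used from the deposited table. They were chosen by name: 18 enzymes of cholesterol synthesis, 5 genes of the SREBP control system, 2 lipoprotein receptors, and 4 genes of sterol transport and esterification. Of these, 28 stood in the table under their own symbols, and Msmo1 stood under its older symbol Sc4mol. Averaged over the libraries, all 29 passed the minimum level of 50, and the lowest average was that of Idi1 at 88.3. Their ratios were therefore taken among all 11951 genes past that minimum.

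All populations were gated as LSK cells, marrow cells without lineage markers but with Sca-1 and c-Kit, among which stem and early progenitor cells are found. Hematopoietic stem cells (HSCs) were gated without CD48 and with CD150, and were split by a Map17-GFP reporter into GFP+ and GFP- HSCs. Multipotent progenitors (MPPs) were gated with CD48 and without CD150, and were GFP-. The sources used here do not give how the reporter was built, the age and number of the mice, or whether animals were pooled. The comparisons asked how the reporter divides the stem cell gate and how each HSC fraction differs from progenitors. The quantity measured was the authors' normalized count per gene, called the level here. Where 3 levels follow each other, they are those of MPPs, GFP- HSCs and GFP+ HSCs, in that order. With 1 library per population there is no spread between replicates, so no test was made. Differences are described by size, with 2-fold on the scale of log2(level + 5) as the mark for a gene far apart. A bulk level also cannot tell fewer cells of a type from less RNA per cell.

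Cells make cholesterol from acetyl-CoA through mevalonate, farnesyl diphosphate, squalene and lanosterol, and they also take it up in lipoproteins. The pathway is governed by the SREBP transcription factors, which SCAP carries from the endoplasmic reticulum for activation when sterols are low and which INSIG proteins hold back when sterols are high. Mevalonate also feeds the isoprenoid branch, which includes the side chain of coenzyme Q. Dividing cells need sterol for new membrane, so cell division genes are given beside the sterol genes below.

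SREBPs are known to act on promoters together with NF-Y and Sp1, so the letters of these factors' sites were searched in promoter windows. Windows came from RefSeq (GRCm38.p6, the assembly also called mm10) and ran from 250 bases before to 50 bases after an annotated start. They were found for 24 of the 29 genes, with 35 windows in all. Shown here are stretches before the start that hold no annotated exon. They belong to the enzyme gene with a sterol regulatory element match, Mvk with its many NF-Y boxes, and some genes higher in HSCs than in MPPs. Also shown are Ebp and the first window of Vldlr, the genes at least 2-fold below MPPs in GFP+ HSCs. Capitals mark a sterol regulatory element (TCACNCCAC), an E-box (CACGTG), an NF-Y box (CCAAT) or a GC box (GGGCGG), each on either strand, so that ATTGG and CCGCCC are the same boxes read from the other strand.
Hmgcs1, chr13:119690151-119690350, plus strand: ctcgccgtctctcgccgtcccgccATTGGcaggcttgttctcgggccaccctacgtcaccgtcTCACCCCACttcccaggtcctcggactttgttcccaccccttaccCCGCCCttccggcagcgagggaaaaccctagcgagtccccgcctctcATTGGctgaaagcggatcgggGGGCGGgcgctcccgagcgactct
Mvk, chr5:114444069-114444268, plus strand: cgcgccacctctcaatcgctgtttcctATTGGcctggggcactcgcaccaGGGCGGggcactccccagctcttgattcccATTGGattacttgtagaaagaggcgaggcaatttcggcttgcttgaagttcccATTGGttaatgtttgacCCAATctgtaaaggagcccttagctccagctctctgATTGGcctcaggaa
Lss, chr10:76531405-76531587, plus strand: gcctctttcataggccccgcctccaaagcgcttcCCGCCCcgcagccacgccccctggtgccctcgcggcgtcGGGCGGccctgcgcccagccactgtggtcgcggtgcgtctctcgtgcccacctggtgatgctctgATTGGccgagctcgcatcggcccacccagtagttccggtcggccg
Sc5d, chr9:42264301-42264500, minus strand: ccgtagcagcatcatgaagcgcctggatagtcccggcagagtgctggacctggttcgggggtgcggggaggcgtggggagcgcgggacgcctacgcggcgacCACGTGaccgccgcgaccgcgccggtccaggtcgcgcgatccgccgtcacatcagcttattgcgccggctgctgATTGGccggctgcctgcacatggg
Insig1, chr5:28071212-28071362, plus strand: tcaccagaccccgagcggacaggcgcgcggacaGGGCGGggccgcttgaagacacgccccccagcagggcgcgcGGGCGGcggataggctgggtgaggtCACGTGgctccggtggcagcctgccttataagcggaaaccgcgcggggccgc
Ebp, chrX:8193513-8193712, minus strand: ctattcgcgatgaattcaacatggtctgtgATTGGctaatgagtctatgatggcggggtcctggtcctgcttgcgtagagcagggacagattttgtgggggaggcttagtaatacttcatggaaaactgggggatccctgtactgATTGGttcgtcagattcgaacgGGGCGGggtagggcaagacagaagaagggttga
Vldlr, chr19:27216284-27216483, plus strand: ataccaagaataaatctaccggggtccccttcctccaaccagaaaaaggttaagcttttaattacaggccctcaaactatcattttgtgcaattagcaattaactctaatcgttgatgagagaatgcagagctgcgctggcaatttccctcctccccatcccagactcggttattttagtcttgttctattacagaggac

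The sterol regulatory element letters were found in 1 of the 24 genes, Hmgcs1, where the match begins 137 bases before the start (position -137). All genes with a window held it in 1.44% of cases, and the tested genes in 1.35%. Only these exact letters were searched, so elements spelled otherwise would be missed. A gene without a match is therefore not shown to lack such an element. NF-Y boxes were common among the sterol genes: 21 of 24 held at least 1 in some window, or 87.5%, beside 43.1% of 8994 tested genes. Mvk held 5 in the stretch printed above, and 11 of the 24 genes held at least 2 in 1 window, beside 16.9% of tested genes. GC boxes were found in 22 of 24, or 91.7%, beside 69.2% of tested genes. E-boxes were found in 5 of 24, namely Hsd17b7, Sc5d, Dhcr7, Scap and Insig1, or 20.8%, beside 12.1% of tested genes. Matches of different motifs did not overlap in the 35 windows. Genes with more windows had more chances of a match. By window, 62.9% of the sterol genes' windows and 37.4% of all 32851 windows held an NF-Y box. Boxes were found both in genes higher in HSCs, such as Lss and Insig1, and in Ebp, which was lower. Neither the first Vldlr window nor any of the 3 Lrp8 windows held a match, whereas the second Vldlr window held an NF-Y box and a GC box.

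**Figure D1:**
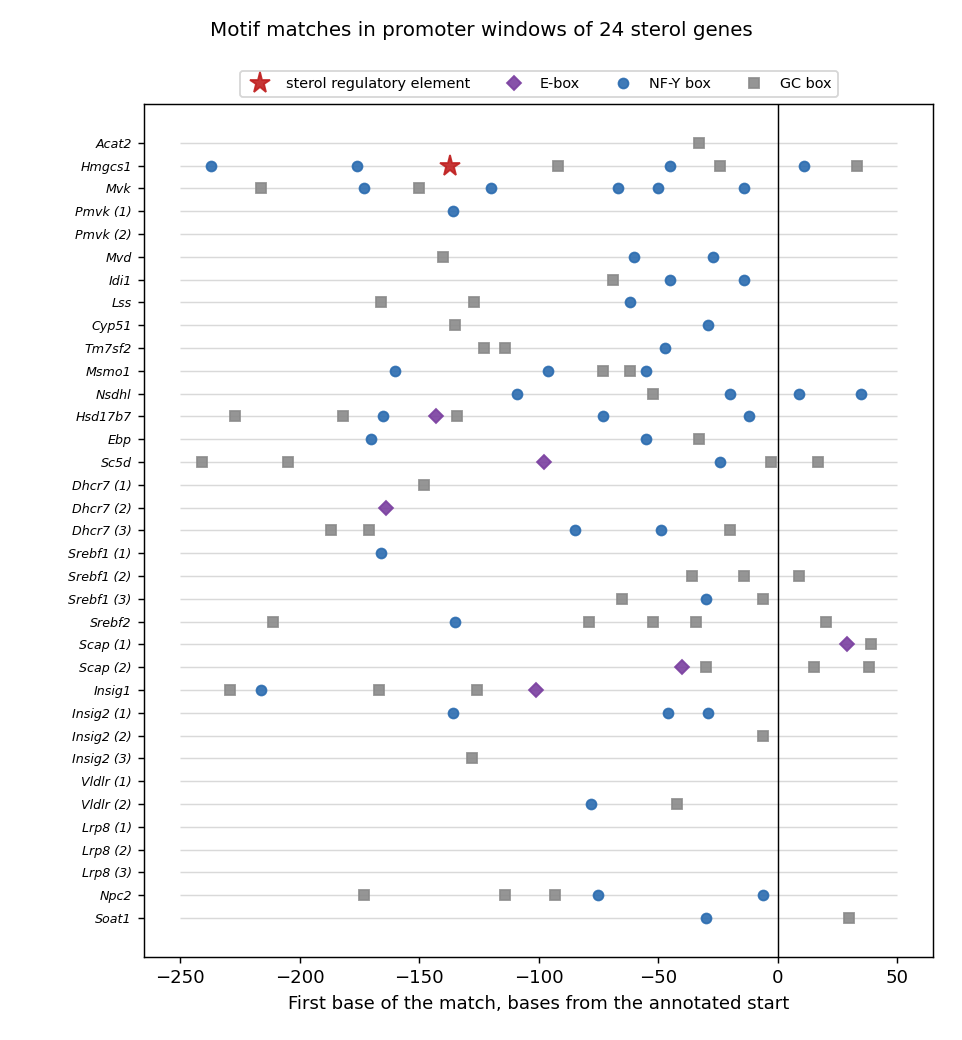
Matches of 4 motifs in 35 promoter windows of 24 sterol genes, with the distance of the first base of each match from the annotated start in bases on the x axis and 1 row per window (numbered where a gene has several). The single sterol regulatory element match lies in Hmgcs1, and blue points, the NF-Y boxes, lie in 21 of the 24 genes.

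In the comparison of the stem cell fractions, sterol synthesis genes were slightly higher in GFP+ than in GFP- HSCs, and the lipoprotein receptor gene Vldlr was much lower. Of the 29 genes, 21 were higher and 8 lower in GFP+ HSCs, beside 51.7% higher and 47.8% lower of all genes tested. The median log2 ratio was 0.12, beside 0.01 for all genes. None of the 29 was 2-fold apart (0 of 29, beside 0.41% higher and 0.87% lower, or 1.28% either way, of all genes). At 1.5-fold, 0 were higher and 1, Vldlr, was lower, beside 2.44% and 3%, or 5.44% either way, of all genes. The step is small: the middle 50% of all genes ran from -0.13 to 0.15 on the log2 scale, and 12 of the 29 lay inside it, 12 above it and 5 below it.

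In the comparison with MPPs, differences lay in both directions. In GFP- HSCs the genes from squalene onward were mostly higher than in MPPs, whereas Scap and the genes of lysosomal export were lower and the mevalonate steps were mixed. Of all 29, 16 were higher and 13 lower, beside 49.2% and 50.6% of all genes, with a median log2 ratio of 0.04 beside -0.01. None was 2-fold apart, beside 11.6% higher and 5.53% lower of all genes. At 1.5-fold 3 were higher (Insig1, Stard4 and Idi1) and 2 lower (Ebp and Npc2), or 5 of 29 beside 32.7% of all genes. In GFP+ HSCs against MPPs, 16 were again higher and 13 lower, beside 50.7% and 49.2% of all genes, with a median of 0.12 beside 0.01. Stard4 was at least 2-fold higher and Ebp and Vldlr at least 2-fold lower, so 1 and 2 of 29 beside 13.7% and 8.6% of all genes. At 1.5-fold 6 were higher and 5 lower, or 11 of 29 beside 40.2% of all genes. The comparisons share libraries and are not independent of each other. The shares of the 29 past 1.5-fold and 2-fold were near or below those of all genes, and the values by role follow.

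**Figure D2:**
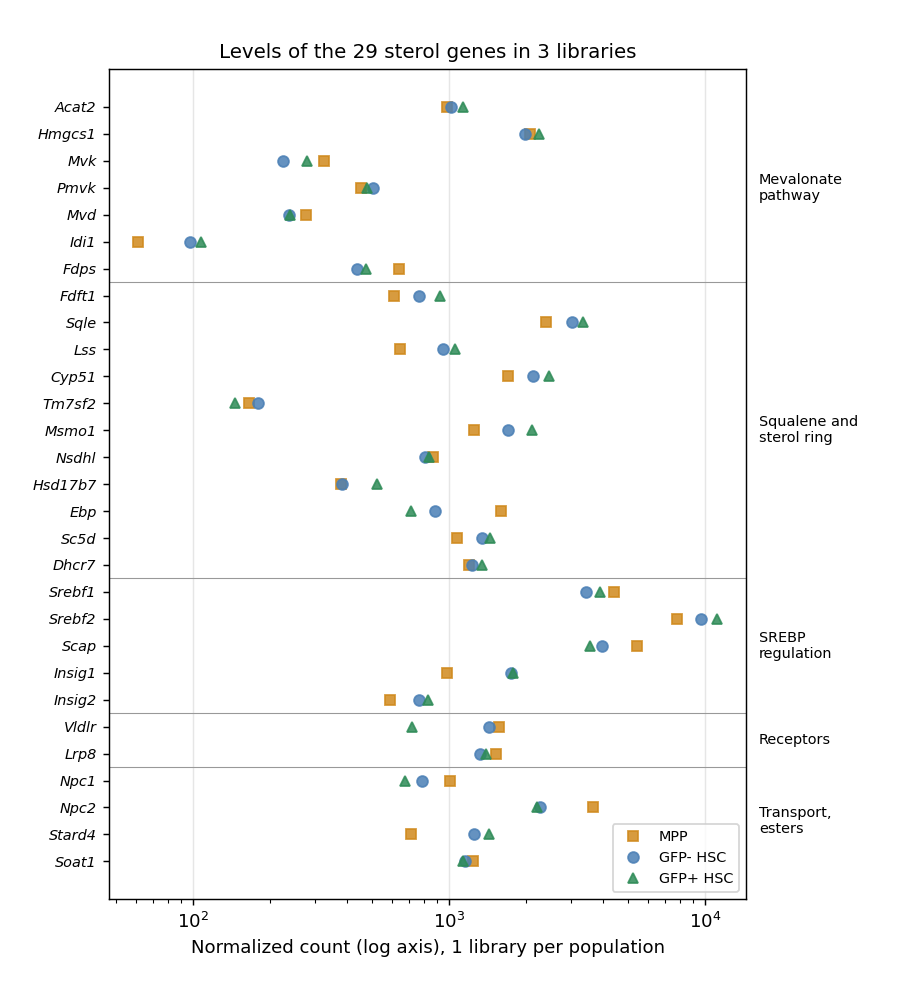
Level of each of the 29 genes (normalized count, log axis) in the MPP, GFP- HSC and GFP+ HSC libraries, 1 point per library, grouped by role. For most squalene and sterol ring enzymes the MPP square lies left of both HSC points, as for Lss at 646, 952 and 1061, whereas for Ebp, Scap and Npc2 it lies right of them.

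**Figure D3:**
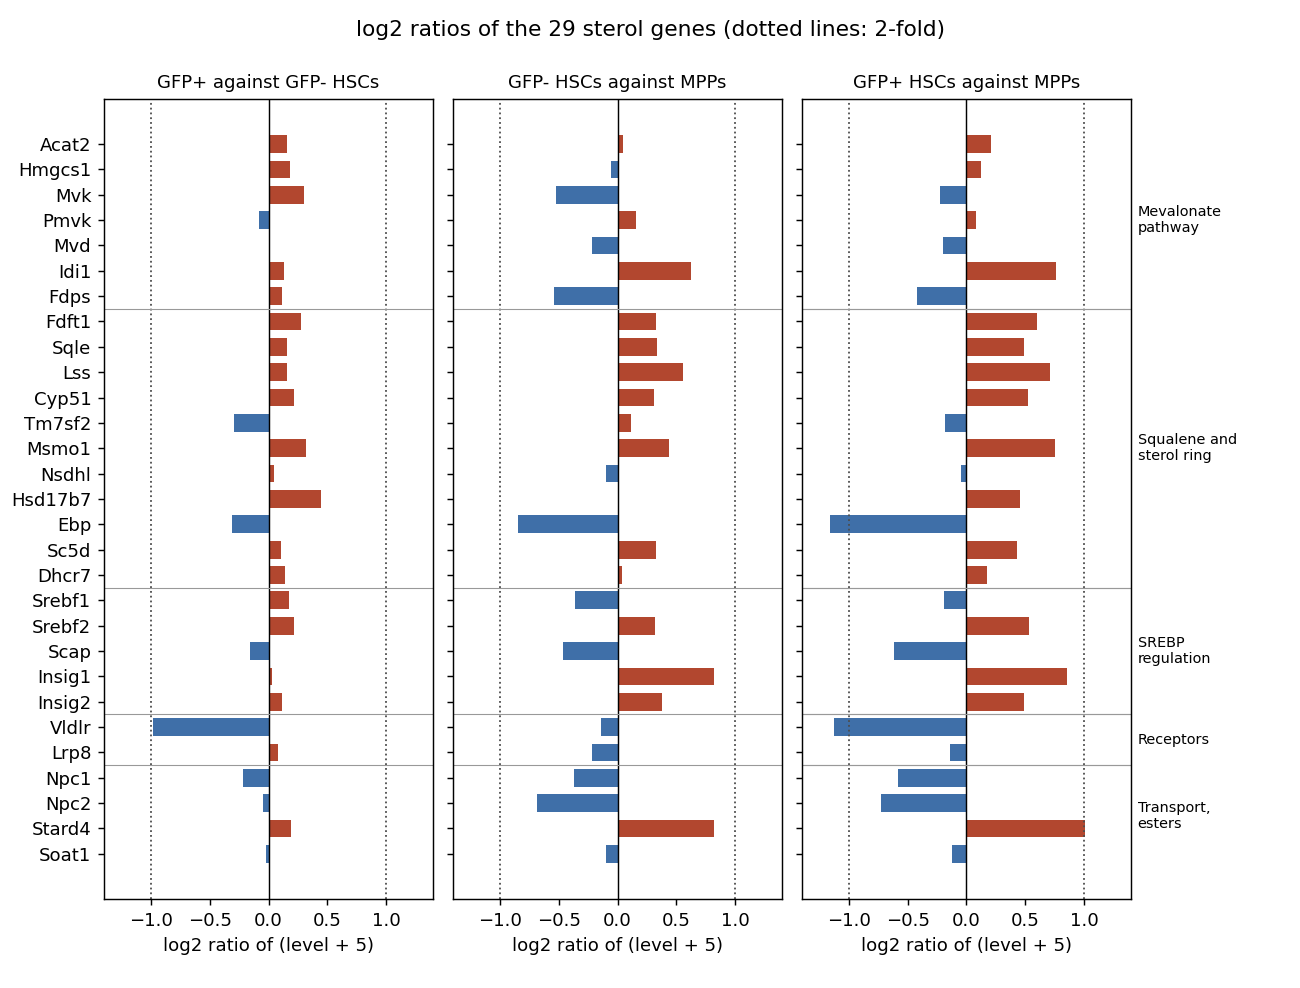
log2 ratios of (level + 5) for the 29 genes in the 3 comparisons, with dotted lines at 2-fold, red bars for higher and blue bars for lower. No bar passes a dotted line in the first and second panels, and Stard4, Ebp and Vldlr do so in the third.

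The mevalonate steps did not move as a block. Hmgcs1, which makes HMG-CoA (chromosome 13, 119690351 to 119708260), stood at 2067 in the MPP, 1988 in the GFP- HSC and 2250 in the GFP+ HSC library. Its ratio of GFP- HSCs to MPPs, -0.06 on the log2 scale, changed sign when libraries were scaled to the same total (0.02), so no direction is given. Acat2, which joins acetyl-CoA units at the entry of the pathway, stood at 981, 1016 and 1132. That value is uncertain, since 45.9% of the 50-base stretches of its transcript also stand in the neighbouring copy Acat3, which was lower in both HSC libraries (1310 in the MPP, 758 in the GFP- HSC and 687 in the GFP+ HSC library), and 13.2% in Tcp1.

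The kinases and the decarboxylase that turn mevalonate into isopentenyl diphosphate differed in level per kilobase of the longest transcript. By that measure in GFP- HSCs, Mvk at 94 and Mvd at 130 ranked 26 and 25 of the 29 genes, and Pmvk at 425 ranked 13. Mvk, mevalonate kinase, stood at 325 in the MPP, 224 in the GFP- HSC and 278 in the GFP+ HSC library. It was 1.45-fold below MPPs in GFP- HSCs and 1.24-fold higher in GFP+ than in GFP- HSCs. Pmvk, the next kinase, stood at 453, 507 and 479, and Mvd, the decarboxylase, at 277, 238 and 240. The ratios of these genes between the HSC fractions were -0.08 and 0.01, and that of Mvd turned to -0.04 when the trend on mean level was removed.

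The end of the mevalonate branch held the lowest gene of the set and 1 that favoured MPPs. Idi1, the isomerase that makes the second building block of isoprenoids, stood at 61 in the MPP, 97 in the GFP- HSC and 107 in the GFP+ HSC library, a 1.75-fold difference between GFP+ HSCs and MPPs. Its log2 ratio there was 0.76, and 0.30 with the trend on mean level removed, so its size depends on the treatment of low genes. The transcript shares 21.3% of its 50-base stretches with the pseudogene Gm13502. Fdps, which makes farnesyl diphosphate, stood at 637, 437 and 474, and was 1.46-fold below MPPs in GFP- HSCs. Summed over the 7 mevalonate enzymes, levels were 4801 in the MPP, 4507 in the GFP- HSC and 4960 in the GFP+ HSC library.

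From squalene onward, 9 of 11 enzymes were above MPPs in GFP- HSCs and 9 of 11 were higher in GFP+ than in GFP- HSCs, beside 49.2% and 51.7% of all genes. Their median log2 ratio was 0.31 in GFP- HSCs against MPPs, 0.15 between the fractions, and 0.46 in GFP+ HSCs against MPPs, where 8 of 11 were higher. None passed 2-fold upward, beside 11.6%, 0.41% and 13.7% of all genes in that order of comparisons. Among the genes higher in GFP- HSCs, Hsd17b7 (log2 ratio 0.01) and Tm7sf2 (0.11) turned lower, at -0.07 and -0.16, with the trend on mean level removed.

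Squalene synthase, epoxidase and cyclase ran in the same order of libraries. Fdft1, squalene synthase, which commits farnesyl diphosphate to sterols, stood at 611 in the MPP, 766 in the GFP- HSC and 927 in the GFP+ HSC library. It shares 19.9% of its 50-base stretches with Ctsb on the opposite strand, a gene at 9165, 9125 and 10285, and the library chemistry does not mark strand. Sqle, the epoxidase and a known control point of the pathway, stood at 2389, 3015 and 3355. Lss, the cyclase that closes the sterol rings (chromosome 10, 76531565 to 76557139), stood at 646, 952 and 1061, so it was above MPPs by 1.47-fold in GFP- HSCs and by 1.64-fold in GFP+ HSCs. In each of these genes MPPs had the lowest and GFP+ HSCs the highest level.

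The enzymes that strip methyl groups from lanosterol were also highest in GFP+ HSCs, except Nsdhl. The reductase gene Tm7sf2, given with them, was not highest there. Cyp51, lanosterol demethylase, stood at 1709 in the MPP, 2123 in the GFP- HSC and 2462 in the GFP+ HSC library. Msmo1, the methylsterol oxidase (chromosome 8, 64718123 to 64733578), stood at 1249, 1698 and 2115, and was 1.69-fold above MPPs in GFP+ HSCs. Hsd17b7, a ketosteroid reductase of the same complex (chromosome 1, 169949535 to 169969242), stood at 379, 381 and 522. It was level between MPPs and GFP- HSCs, and its 1.37-fold step to GFP+ HSCs was the largest upward step of the 29 genes between the fractions, with 4.97% of all genes at or above it. Nsdhl, the dehydrogenase that works with both, stood at 864, 809 and 837, and its ratio of GFP+ HSCs to MPPs, -0.05, turned to 0.03 with libraries scaled to the same total. Tm7sf2, a sterol reductase at low levels, stood at 166, 180 and 146. Its annotated exons overlap those of Vps51 by 532 bases on the same strand, a gene at 1971, 2073 and 1989, so its level is uncertain. The level of Tm7sf2 does not stand for its step as a whole, since Lbr, given below among partners of sterol enzymes, was far higher.

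Of the last steps, Ebp went against the others. Sc5d, the desaturase, stood at 1073 in the MPP, 1347 in the GFP- HSC and 1451 in the GFP+ HSC library, and Dhcr7, which reduces the last precursor to cholesterol, at 1195, 1226 and 1351. Ebp, the sterol isomerase that comes before both (chromosome X, 8185329 to 8193512), stood at 1601, 886 and 714. It was below MPPs by 1.81-fold in GFP- HSCs and by 2.24-fold in GFP+ HSCs, and 1.24-fold lower in GFP+ than in GFP- HSCs. Among all genes, 6.74% had a ratio of GFP+ HSCs to MPPs at or below that of Ebp. Summed over the 11 enzymes, levels were 11882 in the MPP, 13383 in the GFP- HSC and 14941 in the GFP+ HSC library.

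In the SREBP system, Srebf2 and the Insig genes were higher in both HSC libraries than in MPPs, and Srebf1 and Scap were lower. Srebf2 encodes the SREBP that mainly drives cholesterol genes (chromosome 15, 82147269 to 82205379) and stood at 7761 in the MPP, 9661 in the GFP- HSC and 11194 in the GFP+ HSC library. Srebf1, whose products mainly drive fatty acid genes, stood at 4438, 3449 and 3888. Per kilobase of the longest transcript, Srebf2 was 1.48 times the level of Srebf1 in MPPs, 2.37 times in GFP- HSCs and 2.44 times in GFP+ HSCs, so the ratio was higher in both HSC libraries than in MPPs. Srebf2 also had the highest level per kilobase of all 29 genes in each library, at 1529, 1903 and 2205, followed in GFP- HSCs by Scap at 936 and Srebf1 at 802. The place of Scap depends on the length used. With summed exon length it stood at 532 in GFP- HSCs, below Srebf1 at 612, Insig1 at 565 and Sqle at 544.

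Scap, the carrier of the SREBPs, stood at 5454 in the MPP, 3956 in the GFP- HSC and 3550 in the GFP+ HSC library, and was 1.54-fold below MPPs in GFP+ HSCs. Insig1, a retention protein that is itself a target of SREBPs (chromosome 5, 28071412 to 28078662), stood at 984, 1747 and 1787. It was 1.78-fold above MPPs in GFP- HSCs, the largest upward ratio of the 29 genes in that comparison, and was level between the fractions. Insig2, its relative, stood at 587, 764 and 825. Per kilobase, Insig1 was 1.68 times the level of Insig2 in MPPs, 2.29 times in GFP- HSCs and 2.17 times in GFP+ HSCs.

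The lipoprotein receptors split between the HSC fractions. Vldlr, the very low density lipoprotein receptor, which also binds reelin (chromosome 19, 27216480 to 27254231), stood at 1574 in the MPP, 1429 in the GFP- HSC and 720 in the GFP+ HSC library. It was close in MPPs and GFP- HSCs and 1.98-fold lower in GFP+ than in GFP- HSCs, just short of the 2-fold mark, with 0.904% of all genes at or below its ratio. Lrp8, the closest relative of Vldlr and likewise a reelin receptor, stood at 1531, 1319 and 1392. Per kilobase, Lrp8 was 1.17 times the level of Vldlr in MPPs, 1.11 times in GFP- HSCs and 2.33 times in GFP+ HSCs. With summed exon length in place of the longest transcript the same ratios were 0.931, 0.884 and 1.85, so which receptor is higher in MPPs and GFP- HSCs depends on the length used. The step of Vldlr between the fractions was the largest of the 29 genes in either direction.

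Sterol transport genes were lower in HSCs than in MPPs, except Stard4. Npc1 and Npc2, which hand cholesterol out of lysosomes, stood at 1014 in the MPP, 785 in the GFP- HSC and 674 in the GFP+ HSC library, and at 3656, 2273 and 2202. Npc2 was 1.61-fold below MPPs in GFP- HSCs. Soat1, which esterifies cholesterol for storage, stood at 1240, 1158 and 1139 and was nearly level. Stard4, a soluble sterol carrier and known SREBP target, stood at 709, 1258 and 1433. It was above MPPs by 1.77-fold in GFP- HSCs and by 2.02-fold in GFP+ HSCs. Its log2 ratio for GFP+ HSCs against MPPs lay just past the 2-fold mark, and with a pseudocount of 20 just short of it. Summed levels of these 4 genes were 6619, 5474 and 5448.

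**Figure D4:**
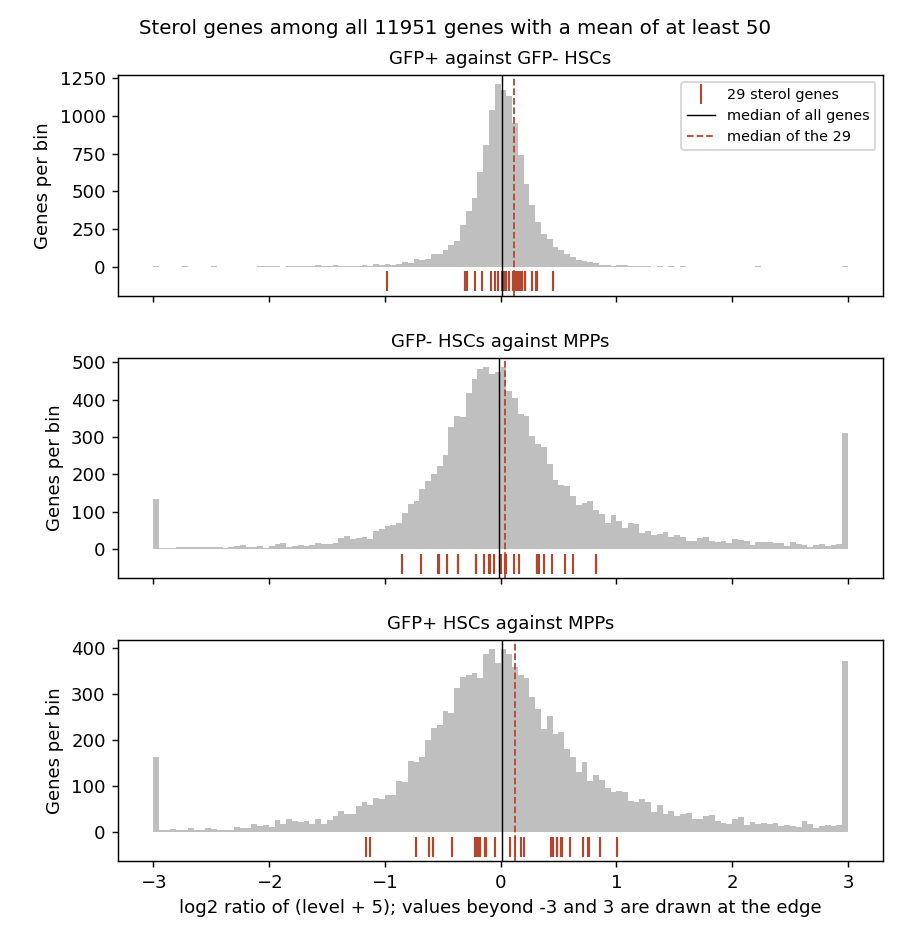
Distribution of log2 ratios of (level + 5) over all 11951 genes tested (grey, genes per bin) in the 3 comparisons, with the 29 sterol genes as red ticks below the axis, the median of all genes as a black line and that of the 29 as a dashed line. The dashed line lies right of the black line in each panel, at 0.12, 0.04 and 0.12, and the Vldlr tick stands alone at the left in the top panel.

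Genes of cell division are given here beside the sterol genes. All 15 S phase genes and all 16 mitosis genes of the lists used were below MPPs in GFP- HSCs and lower again in GFP+ HSCs. Their summed levels were 146580 in the MPP, 90196 in the GFP- HSC and 66873 in the GFP+ HSC library for S phase, and 100700, 42889 and 27475 for mitosis. Rrm2, a subunit of ribonucleotide reductase, stood at 5653, 2459 and 1699, and the mitotic kinase gene Cdk1 at 4673, 1994 and 1135. Over the same libraries the 18 synthesis enzymes together stood at 16683, 17890 and 19901. In GFP- HSCs 12 of them were higher and 6 lower than in the progenitors, beside 49.2% and 50.6% of all genes. Their median log2 ratio there was 0.08, beside -0.01 for all genes. All 29 sterol genes took 0.171%, 0.180% and 0.192% of the summed levels of all genes. The part of cell division in the sterol gene levels, such as those of Ebp and Npc2, was not tested.

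**Figure D5:**
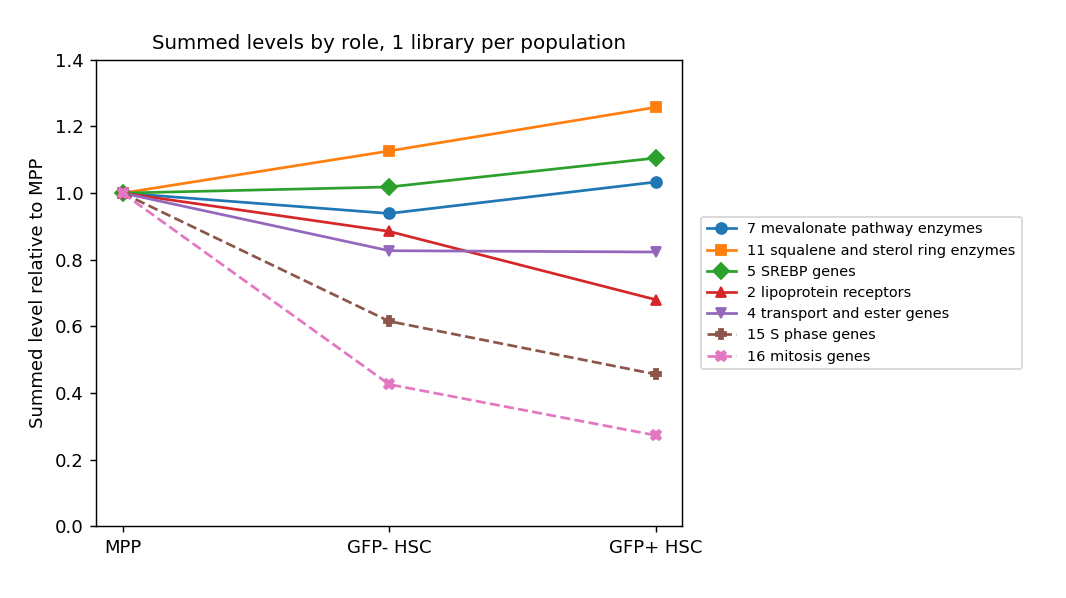
Summed level of each role group relative to its value in MPPs (y axis, from 0) in the 3 libraries, with S phase and mitosis genes as dashed lines. The squalene and sterol ring enzymes end at 1.26 times and the mevalonate enzymes at 1.03 times their MPP level in GFP+ HSCs, the receptors at 0.680 times, and the mitosis genes at 0.273 times.

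Genes around the sterol pathway were counted at the same 2-fold mark, which 11.6% of all genes passed upward and 5.53% downward in GFP- HSCs against MPPs. Of 14 fatty acid synthesis and desaturation genes past the minimum level, 4 were at least 2-fold above MPPs and 1 at least 2-fold below them in GFP- HSCs, with 7 higher and 7 lower at any size and a median log2 ratio of 0.05. Scd1, a fatty acid desaturase, stood at 26 in the MPP, 144 in the GFP- HSC and 189 in the GFP+ HSC library, and Me1, which supplies NADPH, at 28, 141 and 222. The MPP levels of both lay below the minimum of 50. Both passed it only through the HSC libraries, so their count as higher there is partly built into the rule. Fads1, another desaturase, stood at 2656, 5541 and 6512, and Acss2, which makes acetyl-CoA from acetate, at 1218, 2664 and 2550. Elovl5, a fatty acid elongase, stood at 6011, 2660 and 2401. Between the fractions 0 of the 14 were 2-fold apart, beside 1.28% of all genes, with a median log2 ratio of 0.14 beside 0.01.

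Of 9 LXR and efflux genes, 2 were at least 2-fold above MPPs in GFP- HSCs and 0 below, beside the 11.6% and 5.53% of all genes, and at any size 6 were higher and 3 lower. The 2 were Nr1h3, which encodes the sterol sensor LXR alpha, at 21 in the MPP, 135 in the GFP- HSC and 124 in the GFP+ HSC library, and the cholesterol exporter gene Abca1 at 697, 1624 and 1522. Nr1h3 lay below the minimum of 50 in MPPs and passed it only through the HSC libraries, so its count as higher there is partly built into the rule. Of 4 oxysterol genes past the minimum, 1 was at least 2-fold higher, the oxysterol hydroxylase gene Cyp7b1 at 114, 355 and 401, and 3 of the 7 listed did not pass the minimum. Of 16 genes of intracellular transport and ester hydrolysis, 2 were at least 2-fold higher and 0 lower, a share near the 11.6% of all genes. At any size 7 were higher and 9 lower, with a median log2 ratio of -0.05. The 2 were Nceh1, a cholesteryl ester hydrolase, at 2237, 6459 and 7239, and Gramd1c, a sterol transfer protein, at 268, 558 and 583.

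Other uptake receptors were mixed. Of 9 further lipoprotein receptor and adaptor genes past the minimum, 2 were at least 2-fold below MPPs in GFP- HSCs and 0 were 2-fold higher, beside 5.53% and 11.6% of all genes. At any size 4 were higher and 5 lower. Sorl1, a sorting receptor of the same family, stood at 2061 in the MPP, 469 in the GFP- HSC and 587 in the GFP+ HSC library, and Lrp1, a large endocytic receptor, at 642, 170 and 194. Scarb1, the HDL receptor gene, stood at 4289, 2591 and 2332. The reelin gene Reln was near the bottom of the scale, at 24, 1 and 5, and the reelin adaptor gene Dab1 at 0, 0 and 1.

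The remaining lists held few far differences. Of all genes, 1.28% were 2-fold apart between the fractions, 17.1% between GFP- HSCs and MPPs, and 22.3% between GFP+ HSCs and MPPs. Among 14 isoprenoid branch genes 0 were 2-fold apart in any comparison, and the largest difference between GFP- HSCs and MPPs was that of Pdss1, which makes the side chain of coenzyme Q, at 611, 417 and 345. Among 10 genes of SREBP cleavage and sterol-driven degradation 0 were 2-fold apart. Mbtps2, which encodes the second SREBP protease, stood at 383 in the MPP, 390 in the GFP- HSC and 298 in the GFP+ HSC library. Of 9 partners of sterol enzymes 1 was at least 2-fold lower in GFP- HSCs than in MPPs, beside 5.53% of all genes. It was Tmem97, an endoplasmic reticulum protein that binds sterols and NPC1 (757, 355 and 315). Por, which passes electrons to SQLE and CYP51, stood at 4238, 6981 and 8183. Lbr, in the same list, stood at 21908, 13003 and 11793, and was 1.68-fold below MPPs in GFP- HSCs. At any size 5 of these 9 genes were higher and 4 lower there, beside 49.2% and 50.6% of all genes.

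The sort genes went the way of the gates, with Slamf1 (CD150) at 17, 2144 and 2219 and Cd48 at 7744, 168 and 64. After the authors' scaling, all genes summed to 26689660 in the MPP, 25375047 in the GFP- HSC and 25311805 in the GFP+ HSC library. Markers of other cell types differed as well. The 9 erythroid genes summed to 5835 in the MPP, 5965 in the GFP- HSC and 3613 in the GFP+ HSC library, the 8 megakaryocyte and platelet genes to 4693, 41474 and 47487, and the 9 neutrophil genes to 731, 839 and 1624. The 10 monocyte and macrophage genes summed to 3008, 458 and 334, the 8 dendritic cell genes to 6334, 2527 and 2997, and the 6 mast cell and basophil genes to 1317, 130 and 45. The 8 B cell genes summed to 1489, 781 and 918, the 8 T and NK cell genes to 2690, 1697 and 1575, and the 8 endothelial and stromal genes to 6638, 3571 and 3640. The near-equal HSC sums of that last list hide wide gaps. Col1a1 stood at 17, 22 and 294, Cxcl12 at 66, 187 and 29, and Pecam1, its highest gene, at 4053, 2304 and 2098. Of its 5 genes past the minimum, 2 were higher and 3 lower in GFP+ than in GFP- HSCs. In each direction 1 was 2-fold apart, beside 0.41% and 0.87% of all genes. Pax5 and Cd3e, which define B and T cells, were listed at 0 in both HSC libraries and stood at 7 and 16 in MPPs. They do not stand for their lists. Of the 8 B cell genes 3 were at 0 in each HSC library, and Cd79b stood at 1109, 749 and 870. Of the 8 T and NK cell genes 4 were at 0 in GFP- HSCs and 3 in GFP+ HSCs. In the same list Lat stood at 809, 1015 and 937 and Klrb1c at 39, 281 and 266. The macrophage gene Marco was listed at 0 in all 3 libraries, and the dendritic cell gene Itgax at 0 in both HSC libraries. Of the 10 monocyte and macrophage genes 1 was at 0 in each library. Of the 8 dendritic cell genes 2 were at 0 in GFP- HSCs and 1 in GFP+ HSCs. In that list H2-Ab1 stood at 4701, 2234 and 2600 and Clec9a at 38, 107 and 130. The part of these cells in the sterol gene levels was not tested.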

How the data were processed

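RNA was measured in 3 libraries, 1 per population, with no replicates. Per the labels' protocols, cells were sorted, RNA was isolated with TRIzol and a PicoPure kit, and full-length cDNA was amplified with a SMART-seq v4 kit, which does not mark strand. The submitters' processing notes name STAR, DESeq2 and mm10. The sources used here do not give versions, the annotation or the counting tool. The authors deposited normalized counts rounded to whole numbers, treated here as a score with unknown depth, so no counting interval was made.

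Of 23420 rows, 27 with a date in place of a symbol were left out. Ratios are log2(level + 5), which understates differences of low genes, over 11951 genes with a mean of at least 50. Printed folds are ratios of the levels themselves. The members and gene lists were chosen with earlier results of these data known, so no list is independent support. All 29 members are named. Of each other list up to 4 genes with the largest absolute ratio in the first or second comparison could be named. Reln, Dab1, Acat3, Tcp1, Ctsb, Vps51, Gm13502, Gm48342, Gm43738 and 5830462I19Rik stand outside that rule and were chosen after their values were seen. The same holds for Pax5, Cd79b, Cd3e, Lat, Klrb1c, Marco, Itgax, H2-Ab1, Clec9a, Col1a1, Cxcl12 and Pecam1, and for the members shown with promoter sequence. Some genes of the pathway are not analysed here. Among the listed genes, 235 of 236 were found. Lengths and exons came from GENCODE M21, with 50-base stretches shared between transcripts listed from 5% upward. Besides the genes named above, Hmgcs1 (13.6% with Gm48342), Scap (13.1% with 5830462I19Rik) and Fdps (11.7% with Gm43738) passed that mark. The calculation was tested on simulated data. Other settings tried were a pseudocount of 1 or 20, a minimum mean of 10, 200 or none, libraries set to equal totals or equal upper quartiles, lowess removal of the trend on mean level (fraction 0.3), thresholds of 1.5-fold and 4-fold, summed exon length, and promoter windows ending at the start. Python 3.11.15, numpy 2.4.6, pandas 2.3.3, statsmodels 0.14.6 and matplotlib 3.10.9 were used.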

Additional observations from a re-analysis of the deposited data

How the results depend on the processing

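No paired analysis was possible because each population has 1 library and the labels give no replicate numbers. At a threshold of 1.5-fold in place of 2-fold, 1 of the 29 genes was apart between the HSC fractions, 5 between GFP- HSCs and MPPs, and 11 between GFP+ HSCs and MPPs. At 4-fold the last count was 0, where it had been 3. A higher threshold passes fewer genes by construction. Under the 8 other settings of scale, minimum and pseudocount, the counts at 2-fold were 0, 0 and 2 to 3. The median log2 ratio of the sterol genes ran from 0.09 to 0.12, from 0.01 to 0.12 and from 0.12 to 0.20 in the same order. Of 690 ratios of single genes under these settings, 9 changed sign, in 6 genes (Hmgcs1, Nsdhl, Mvd, Tm7sf2, Hsd17b7 and Pmvk), all with a reported size of at most 0.11. The cause was not tested. The unknown depth limits Idi1, Tm7sf2, Mvd and Mvk most, since their levels were the lowest.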
